A study of Mus musculus with 7 samples.

Results

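The genes described are 7 that encode structural RNAs: Rpph1, the RNA of RNase P; Rprl1, Rprl2 and Rprl3, annotated copies of it; Rmrp, the RNA of RNase MRP; Rn7sk, the 7SK RNA; and Terc, the RNA of telomerase. They were found by their symbols and make up 10 of the 55364 entries listed, because Rmrp, Terc and Rprl1 have 2 entries each. They were chosen by measured values, namely the very high Rpph1 at day 7 and a Rprl2 that was high in 4F-mini-oocytes at day 21 and in no other group, so those values are given as a description with no test.

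Mini-oocytes are oocyte-like cells that a female mouse ESC line, BVSC H18 of hybrid 129/C57BL6 background, forms when transcription factors are switched on in a flat culture. All cells carried Nobox, Figla, Tbpl2 and Lhx8 (the 4F), made as proteins that Shield-1 keeps stable, and 8F cells also carried Stat3, Dynll1, Sub1 and Sohlh1 and an Npm2-mCherry reporter. All cultures held SCF and Y-27632, and fresh medium had no Shield-1 from day 12. The groups were 4F-mini-oocytes at day 7 (n = 2, pools of 1000 cells), 4F-mini-oocytes at day 21 (n = 3, pools of 10 cells) and 8F-mini-oocytes at day 21 (n = 2, pools of 10 cells). No 8F library of day 7 was analysed, and day and number of cells changed together, so their parts cannot be told apart. The columns of 4F libraries were written with up to 9 decimals and those of 8F libraries with up to 17, which also cannot be told apart from the factor set. Nothing states that libraries of a group came from separate cultures, so p-values measure only the spread between these samples.

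RNase P is the enzyme that removes the 5′ leader from precursor tRNAs, and its RNA carries the catalytic site. RNase MRP shares most of its proteins and acts on precursor rRNA. 7SK RNA holds the elongation kinase P-TEFb inactive together with HEXIM and LARP7, and Terc is the template that telomerase copies. Rpph1, Rmrp and Rn7sk are made by RNA polymerase III from promoters that lie upstream of the gene, and none of the 7 encodes a protein. How the copies Rprl1, Rprl2 and Rprl3 are transcribed was not tested.

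The sequence of Rpph1 is shown because part of it belongs to a second gene. Rpph1 (ENSMUSG00000092837.1) lies on the minus strand at chr14:50807449-50807767 of mm10, a single exon of 319 bases. Its first 300 bases, chr14:50807468-50807767, are printed with the 233 that also lie in an exon of Ccnb1ip1 (ENSMUSG00000071470.4, same strand, a cyclin B1 interacting protein) in capitals.
Rpph1: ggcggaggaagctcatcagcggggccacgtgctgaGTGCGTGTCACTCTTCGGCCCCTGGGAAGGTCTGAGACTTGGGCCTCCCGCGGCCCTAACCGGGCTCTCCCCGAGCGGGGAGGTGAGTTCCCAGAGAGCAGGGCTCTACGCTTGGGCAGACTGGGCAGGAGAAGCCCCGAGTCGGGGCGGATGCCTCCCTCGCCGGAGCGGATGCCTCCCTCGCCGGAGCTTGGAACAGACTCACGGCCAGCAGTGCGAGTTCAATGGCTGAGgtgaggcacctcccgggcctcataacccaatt

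Rmrp is shown for the same reason. Its shorter entry (ENSMUSG00000088088.1) lies on the minus strand at chr4:43492788-43493058, inside the longer one (ENSMUSG00000115420.1, chr4:43492783-43493063), and 124 of its 271 bases, in capitals, lie in an exon of Ccdc107 on the opposite strand.
Rmrp: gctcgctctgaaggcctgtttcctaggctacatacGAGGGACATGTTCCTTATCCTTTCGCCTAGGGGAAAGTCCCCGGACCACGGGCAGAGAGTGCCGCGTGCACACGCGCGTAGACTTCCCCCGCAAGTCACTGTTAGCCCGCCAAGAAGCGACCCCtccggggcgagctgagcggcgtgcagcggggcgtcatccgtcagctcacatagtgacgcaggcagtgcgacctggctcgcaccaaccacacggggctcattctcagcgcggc

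Rprl3 and Rprl2 are shown because 2 near copies of Rpph1 gave opposite patterns. Rprl3 (ENSMUSG00000088025.1, chr8:3803069-3803358, minus strand) and Rprl2 (ENSMUSG00000087775.1, chr3:22251374-22251663, plus strand) are single exons of 290 bases with no annotated gene within 1 kb. Capitals mark bases not identical to Rpph1 in a global alignment.
Rprl3: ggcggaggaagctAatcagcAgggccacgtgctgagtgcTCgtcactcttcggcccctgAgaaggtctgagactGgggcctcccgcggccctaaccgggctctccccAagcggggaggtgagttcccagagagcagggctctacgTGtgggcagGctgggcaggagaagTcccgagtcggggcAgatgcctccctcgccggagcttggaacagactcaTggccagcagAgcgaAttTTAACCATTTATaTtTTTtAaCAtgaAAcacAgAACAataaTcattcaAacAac
Rprl2: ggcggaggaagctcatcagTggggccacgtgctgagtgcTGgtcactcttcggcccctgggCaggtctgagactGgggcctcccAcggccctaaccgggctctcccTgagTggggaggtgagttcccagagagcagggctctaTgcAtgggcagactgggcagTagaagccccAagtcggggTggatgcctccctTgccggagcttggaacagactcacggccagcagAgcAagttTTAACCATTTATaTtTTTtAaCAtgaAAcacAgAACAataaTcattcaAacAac

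Of the 279 aligned bases, 246 in Rprl3 (88.2%) and 245 in Rprl2 (87.8%) were those of Rpph1. The capitals gather at the 3′ end: 31 fall in the last 70 bases of each copy, against 13 and 14 in the bases before. The copies were closer to each other, with 92.1% identity over 290 bases. Only 7 of their 241 windows of 50 bases were the same in both, and none was the same as a window of Rpph1. Rprl1 (chr6:69326844-69327170, minus strand) was 84.2% identical to Rpph1 and shared no such window with it. Rn7sk (chr9:78175303-78175633, minus strand) is different in this respect, since 192 of its 282 windows recur in 7 other annotated genes. Only uniquely placed reads were counted, and the part of this in the values of Rn7sk was not tested.

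Fragments that overlap several genes were counted as an equal fraction for each, and this is visible in the values. The 2 entries of Rmrp differed by a constant factor of 1.037, the ratio of their lengths, and those of Terc by 1.065, which is 423 bases over 397, so each pair holds equal reads and is given below as 1 entry (the longer Rmrp, and for Terc ENSMUSG00000064796.1 at chr3:96414437-96414859, minus strand). Levels and reads given for Rmrp and Terc therefore leave out the equal part counted under the other entry. For Rmrp, both entries together took 6861 and 5423 reads at day 7. Ccnb1ip1 had between 1.000 and 1.014 times the reads of Rpph1 in the 7 libraries, an excess of 4 to 146 reads. Its level, 11165 and 11120 TPM at day 7 and 845 to 1704 TPM at day 21, therefore ran with that of Rpph1. Together the overlapping genes took 164964 and 218681 reads in the 2 libraries of day 7, 22949 to 27827 in 4F-mini-oocytes and 18457 and 21092 in 8F-mini-oocytes at day 21. Parp2, a poly(ADP-ribose) polymerase gene that starts 73 bases from Rpph1 in the other direction and shares no exon with it, stayed between 18.8 and 33.3 TPM in all 7 libraries. Ccdc107 had 404 and 252 TPM at day 7, 63.9 to 101 TPM in 4F-mini-oocytes and 91.1 and 95.7 TPM in 8F-mini-oocytes at day 21, with its overlap with Rmrp included.

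**Figure D1:**
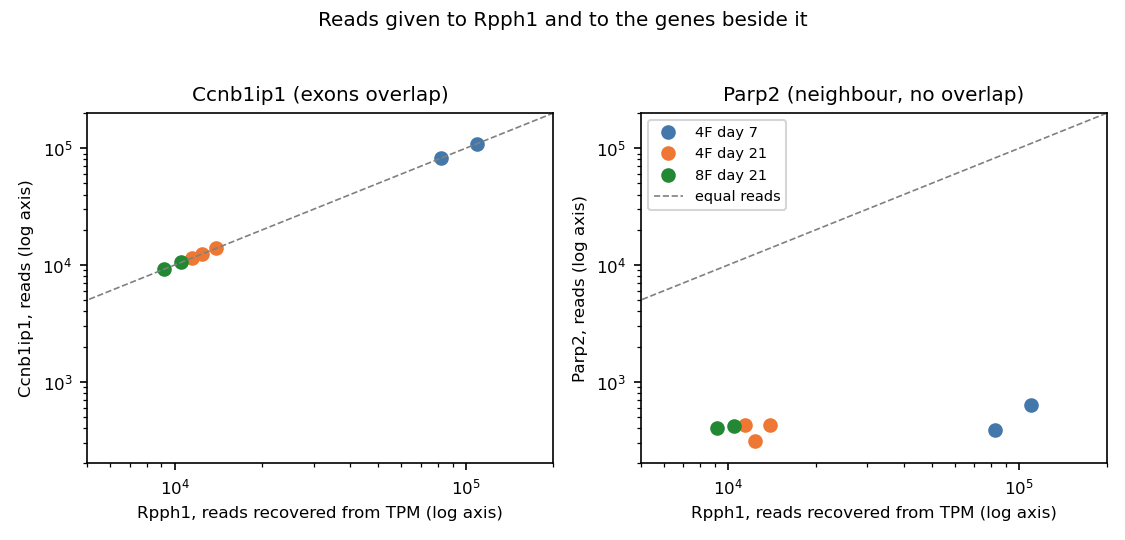
Reads recovered from TPM for Rpph1 (x axis, log scale) against those for Ccnb1ip1 (left) and Parp2 (right, both log scale), 1 point per library; the dashed line marks equal reads. The 7 points of Ccnb1ip1 lie on the line, and those of Parp2, between 312 and 631 reads, lie far below it.

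Between 9051761 and 17190271 reads on genes stood behind each library. Counts of same-group libraries varied beyond what sampling alone gives, with a chi-square of 9.66 to 35.3 per degree of freedom over genes. All 9 oocyte markers reached 1 TPM in every library, and their summed level was 11655 to 13176 TPM at day 7, 29381 to 32387 TPM in 4F-mini-oocytes and 26170 to 26736 TPM in 8F-mini-oocytes at day 21. The 6 pluripotency markers summed to 61.1 to 81.9, 224 to 343 and 123 to 164 TPM in the same order, with Nanog at 0 in all libraries of day 21 and Sox2 at 0 in both of day 7. The 5 granulosa markers summed to at most 3.98 TPM in any library, with Inha at 0 in all 7. The part of these markers in the values below was not tested.

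Rpph1 was the most abundant of the 7 genes at day 7. Its level was 65875 and 65638 TPM at day 7, that is 6.59% and 6.56% of the library total, and it ranked first and second of all genes listed. It was 7654, 10019 and 9266 TPM in 4F-mini-oocytes at day 21, where it ranked between 4 and 6, and 4939 and 5810 TPM in 8F-mini-oocytes, where it ranked 13 and 11. The 3 groups did not overlap, in an order of day 7, 4F at day 21 and 8F at day 21. The share of all genes whose groups separate in this way was not counted, here or for the genes below. Group means were 65757 ± 167 (SD, n = 2), 8979 ± 1209 (SD, n = 3) and 5374 ± 616 TPM (SD, n = 2), so that day 7 was 7.32-fold above 4F and 12.2-fold above 8F at day 21, values that chose the gene. In such bulk samples fewer cells of a type and less RNA per cell cannot be told apart. TPM divides reads by gene length, and by reads alone Rpph1 took 0.911% and 0.932% at day 7 and 0.0534% to 0.0998% at day 21. All these levels, ranks and shares of Rpph1 leave out the near-equal reads counted under Ccnb1ip1. Together the overlapping genes took 1.82% and 1.87% of reads at day 7 and 0.107% to 0.200% at day 21. The difference between 8F and 4F at day 21 was not used in the choice, and it was -0.74 ± 0.23 on the log2(TPM + 1) scale (SE; limma, adjusted p = 0.111), which did not pass FDR 0.05.

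**Figure D2:**
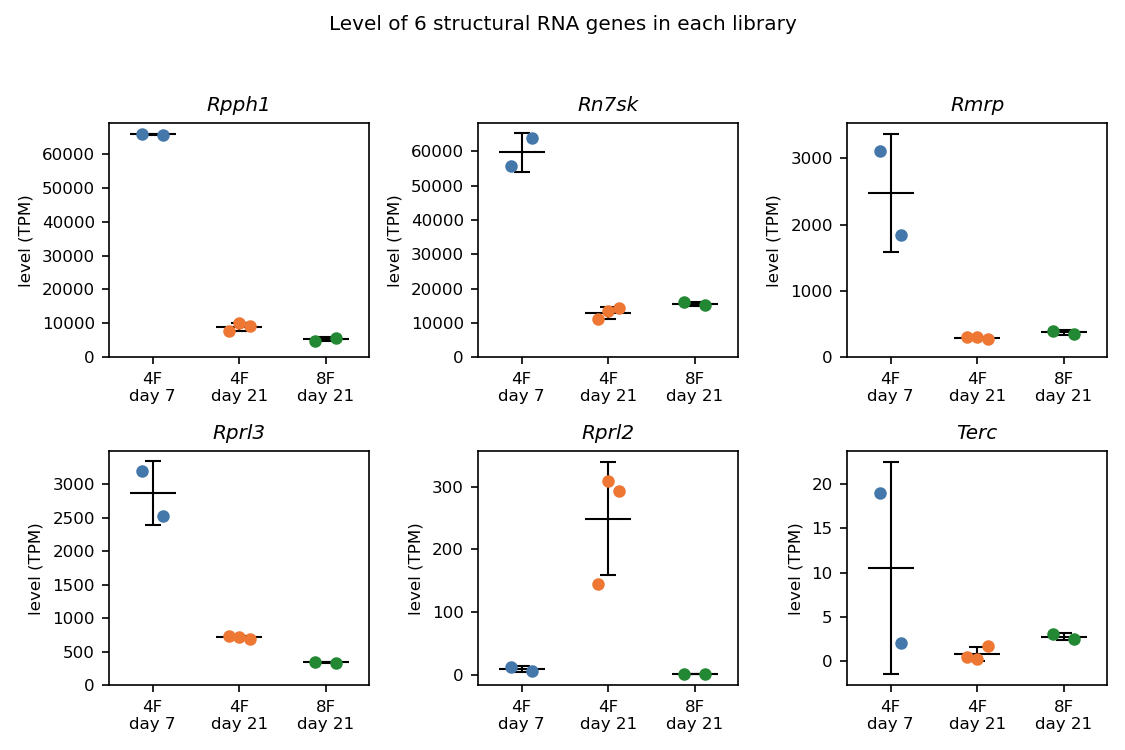
Level in TPM (y axes, linear and different in each panel) of 6 genes in the 3 groups; points are libraries, and bars are the mean and SD (n = 2, 3 and 2), which for Terc at day 7 reaches below 0. Rpph1, Rn7sk, Rmrp and Rprl3 were highest at day 7 in both libraries, while Rprl2 was highest in the 3 libraries of 4F at day 21.

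By TPM, Rn7sk was below Rpph1 in both libraries of day 7 and above it in all 5 of day 21. In 4F at day 21 this order depends on the sharing of reads with Ccnb1ip1. There Rpph1 and Ccnb1ip1 together took 22949, 27827 and 24806 reads, against 17103, 19204 and 19897 for Rn7sk. In 8F they took 18457 and 21092, against 30798 and 28215. Rn7sk had 55736 and 63701 TPM at day 7, 11028, 13355 and 14334 TPM in 4F-mini-oocytes and 15967 and 15084 TPM in 8F-mini-oocytes at day 21. Both libraries of day 7 were above all 5 of day 21, and the 8F libraries were above the 4F ones. Rn7sk fell by 2.22 ± 0.26 on the log2(TPM + 1) scale from day 7 to day 21 in 4F (SE; limma, adjusted p = 0.000899), and 8F at day 21 was lower than 4F at day 7 (-1.94 ± 0.28, adjusted p = 0.0027). The 8F minus 4F difference of 0.27 ± 0.26 did not pass the test (adjusted p = 0.613). Neither fall passed FDR 0.05 when only the 2 groups compared were fitted (adjusted p = 0.0528 and 0.264), and leaving out either 8F library raised the p of 8F at day 21 against day 7 to 0.0861 and 0.095. Quantile normalization, which gives genes of equal rank one value in every library, left a difference of -0.20 in both comparisons with day 7, for a gene that ranked 2 or 3 in all 7 libraries. The TPM ratio of Rpph1 to Rn7sk was 1.18 and 1.03 at day 7, 0.646 to 0.750 in 4F and 0.309 and 0.385 in 8F at day 21. Rpph1 was chosen by its level at day 7 and shares its reads with Ccnb1ip1, so this ratio is a description with no test.

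Rmrp followed the same direction at a lower level. It had 3111 and 1848 TPM at day 7, 299, 298 and 272 TPM in 4F-mini-oocytes and 402 and 347 TPM in 8F-mini-oocytes at day 21. Day 7 lay well above day 21 in spite of a wide gap between its own 2 libraries. The fall in 4F was 3.05 ± 0.22 on the log2(TPM + 1) scale (SE; limma, adjusted p = 0.000159), or 8.55-fold between the means, and 8F at day 21 was lower than day 7 too (-2.68 ± 0.24, adjusted p = 0.000481). Both calls held in all 21 other settings. At day 21 the 8F libraries lay above the 4F ones by 0.36 ± 0.22, which did not pass the test (adjusted p = 0.397).

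The copies of Rpph1 did not move together from day 7 to day 21 in 4F, though Rprl3 and Rprl2 were both lowest in 8F. Rprl3 had 3207 and 2532 TPM at day 7, 733, 716 and 693 TPM in 4F-mini-oocytes and 347 and 334 TPM in 8F-mini-oocytes at day 21, from 547 to 3835 reads. Its groups did not overlap, which was not counted over all genes, and libraries of day 21 lay close together within each factor set. It fell by 2.00 ± 0.13 on the log2(TPM + 1) scale from day 7 to day 21 in 4F (SE; limma, adjusted p = 0.000108). It was the only one of the 4 genes tested (Rpph1, Rn7sk, Rmrp and Rprl3) at more than 100 TPM that passed FDR 0.05 between factor sets, lower in 8F by 1.07 ± 0.13 (adjusted p = 0.00772, 2.10-fold between the means). That call was lost when either 8F library was left out (adjusted p = 0.0863 and 0.0869, differences of -1.09 and -1.04), where the single 8F library left is assumed to vary like the other groups. From 4F at day 7 to 8F at day 21 the difference was -3.06 ± 0.14 (adjusted p = 9.78e-05).

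Rprl2 was the reverse of Rprl3 from day 7 to day 21 in 4F, and like Rprl3 it was lowest in 8F. It had 12.5 and 5.83 TPM at day 7, 145, 309 and 294 TPM in 4F-mini-oocytes and 0.592 and 1.22 TPM in 8F-mini-oocytes at day 21. These rest on 14.2 and 8.83 reads, on 197, 389 and 357 reads, and on 1 and 2 reads. The 3 libraries of 4F at day 21 were above all others, and replicate 1 was the lowest of them. Their mean was 27.2-fold that of day 7, and no ratio to 8F is given because its libraries held 1 and 2 reads. These contrasts chose the gene and were not tested. Rprl3 exceeded Rprl2 by 258 and 434 times at day 7 and by 2.32 to 5.05 times in 4F at day 21.

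Rprl1 was listed at 0 in 6 libraries, and only replicate 1 of 4F at day 21 had a value (3.48 and 4.78 TPM for its 2 entries, on 5.33 reads each), so it was not tested. At these depths 3 reads would have given 1.57 to 2.34 TPM for the longer entry. Terc also had few reads, with 19.0 and 2.04 TPM at day 7, 0.505, 0.272 and 1.69 TPM in 4F-mini-oocytes and 3.04 and 2.51 TPM in 8F-mini-oocytes at day 21, on 0.5 to 31.5 reads of the entry given. Replicate 1 of day 7 stands apart, and the groups of day 7 and 8F at day 21 overlapped. No difference of Terc passed FDR 0.05: it was -2.17 ± 0.82 for day 21 minus day 7 in 4F (SE; limma, adjusted p = 0.0761), 1.13 ± 0.82 for 8F minus 4F (adjusted p = 0.5) and -1.05 ± 0.90 for 8F at day 21 minus 4F at day 7 (adjusted p = 0.406). Without replicate 2 of day 7, which leaves the high library alone, the first was -3.53 with an adjusted p of 0.00997 and the last was -2.41 with an adjusted p of 0.0354; without replicate 1 they were not past the threshold.

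**Figure D3:**
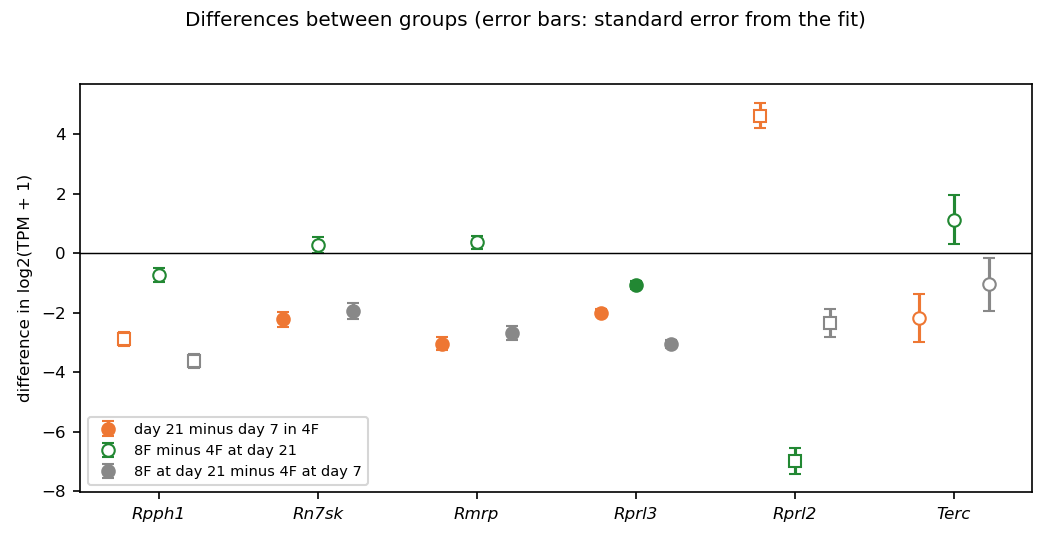
Difference in log2(TPM + 1) between groups for 6 genes (y axis), with the standard error of the fit. Filled circles passed FDR 0.05, open circles did not, and squares are values that chose the gene and were not tested; Rmrp, Rn7sk and Rprl3 lie between -1.94 and -3.06 in both comparisons with day 7.

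Across all genes, 40.6% of 21780 tested were called between day 21 and day 7 in 4F, 25.3% higher and 15.3% lower. The share was 8.37% for 8F minus 4F at day 21, 3.95% higher and 4.41% lower, and 37.2% for 8F at day 21 minus 4F at day 7, 24.2% higher and 13.0% lower. Of the calls between day 21 and day 7 in 4F, 62.3% were higher, against 48.6% under median-of-ratios scaling and 37.5% with voom on recovered reads, which shift the median of all genes from 0.17 to -0.06 and -0.32. Of the 6 member entries tested whose contrast had not chosen them (Rn7sk, Rprl3 and both entries of Rmrp and Terc), 4 were lower at day 21 than at day 7 in 4F and none higher, from 3 genes, and the same 4 entries were lower in 8F at day 21 than at day 7. With Rpph1 added, 1 of 7 entries differed between factor sets, Rprl3. Of the genes under 500 exonic bases, a class that holds all 7, 19.1% of 2913 were called lower and 13.3% higher from day 7 to day 21 in 4F, against 14.7% and 27.1% of the 18319 longer genes. For 8F minus 4F at day 21 the short genes were called higher in 10.6% and lower in 5.05%, and the longer ones in 2.95% and 4.21%. The 7 members together made up 13.1% and 13.6% of all TPM at day 7, 2.02% to 2.51% in 4F and 2.21% and 2.19% in 8F at day 21, while protein-coding genes held 48.2% and 49.1% at day 7 and 70.3% to 74.8% at day 21. Because TPM adds up to the same total in each library, these shares are not independent. Less of the members and more of other RNA cannot be told apart in them.

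**Figure D4:**
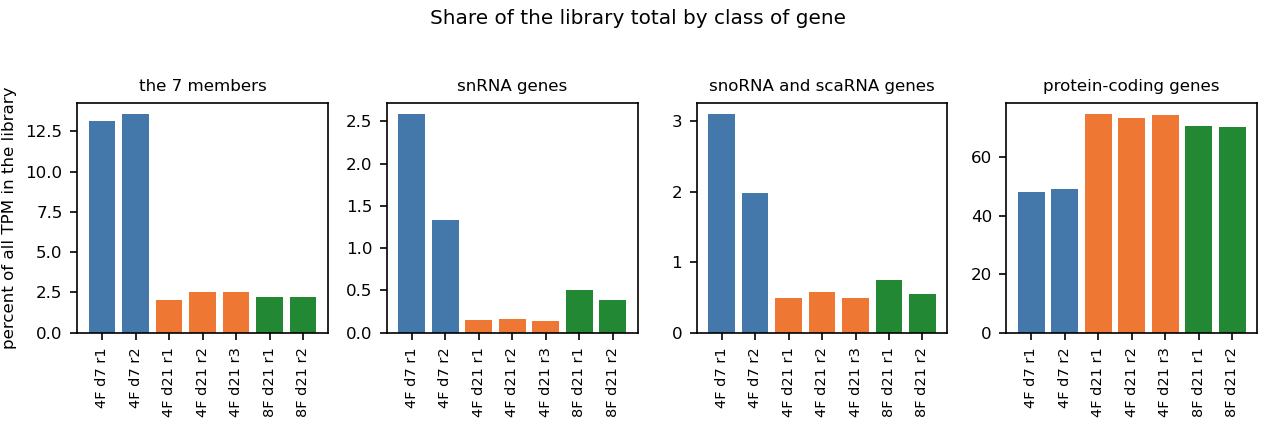
Percent of the summed TPM of each library (y axes, starting at 0) held by the 7 members, snRNA genes, snoRNA and scaRNA genes, and protein-coding genes; each bar is a library. The first 3 classes were higher in both libraries of day 7 than in any of day 21, and protein-coding genes were lower.

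Other structural RNAs were measured to set the 7 beside their like. From a list of 22 further genes (U1, U2, U3, U5, U6, U7, U11 and U12 snRNAs and snoRNAs, Y RNAs, 7SL RNAs, vault RNA and BC1 RNA among them), 24 of 27 entries were tested, and 19 fell and none rose from day 7 to day 21 in 4F, with a median of -3.25 against 0.17 over all genes (limma, FDR 0.05; 19 at an unadjusted p under 0.05). Some genes have 2 entries with nearly the same values, so these are 16 of 20 genes. Across all genes 15.3% were called lower there, and 19.1% of those under 500 exonic bases. Rnu1b2, a U1 snRNA gene, had 1991 and 1057 TPM at day 7, 8.41, 8.37 and 2.89 TPM in 4F and 261 and 143 TPM in 8F at day 21. It was thus low in all 3 libraries of 4F at day 21, and the differences were -7.70 ± 0.50 from day 7 (adjusted p = 0.000116) and 4.79 ± 0.50 for 8F minus 4F (adjusted p = 0.00571), 2 comparisons that share the 4F libraries of day 21. Rny3, a Y RNA that binds the Ro protein, had 2516 and 1594 TPM at day 7 and 33.5 to 92.5 TPM in the 5 libraries of day 21, and fell by 4.83 ± 0.48 from day 7 to 8F at day 21 (adjusted p = 0.000734).

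Between factor sets at day 21, 3.95% of all genes were called higher in 8F, and 10.6% of those under 500 exonic bases. Of the 24 entries, 7 from 6 genes were higher in 8F and none lower, where 13 had an unadjusted p under 0.05. With voom on recovered reads 3 were higher, and 5 under quantile normalization. None of the 4 abundant members was called higher there. These 7 entries included Rn7s1, a 7SL RNA of the signal recognition particle, which had 795, 1116 and 743 TPM in 4F and 6143 and 7726 TPM in 8F (2.98 ± 0.35, adjusted p = 0.00762). Rn7s2, the other 7SL gene, had 6086 to 7394 TPM in 4F and 7801 and 8473 TPM in 8F, and its difference of 0.33 ± 0.24 did not pass (adjusted p = 0.507). Compared with day 7, 12 entries from 10 genes were lower in 8F at day 21 (7 entries without replicate 1 of day 7) and 1 was higher, Rnu7, a histone pre-mRNA processing snRNA with 0 TPM in both libraries of day 7 and 6.45 and 14.8 TPM in 8F (adjusted p = 0.00511). Of all genes, 13.0% were called lower and 24.2% higher in that comparison. With voom on recovered reads no entry of the list was called higher there. Rnu7 is also 1 of the 7 entries called higher in 8F than in 4F. Its reads are not given. In the 8F libraries 3 reads made 0.515 and 0.531 TPM on a gene of 1 kb, and more on a shorter one. Both calls of Rnu7 may thus rest on few reads. Many genes of the list have near-identical copies, so their values are uncertain under unique mapping. Read length also differed between libraries that are not named, and its part in these values was not tested.

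Of 11 genes listed for the protein subunits of RNase P and MRP, 10 were tested, and 6 rose and none fell from day 7 to day 21 in 4F, where 25.3% of all genes were called higher, with a median of 0.83. They were Rpp38, Pop4, Rpp25l, Pop5, Pop1 and Pop7. Rpp38, a subunit of both enzymes, had 37.4 and 40.4 TPM at day 7, 128, 128 and 111 TPM in 4F and 164 and 137 TPM in 8F at day 21 (1.63 ± 0.13 in 4F, limma, adjusted p = 0.000226). Pop1, the large scaffold subunit, had 8.73 and 16.8 TPM at day 7 and 20.1 to 26.9 TPM at day 21 (0.89 ± 0.29 in 4F, adjusted p = 0.0494). Rpp30, a core subunit, had 12.9 and 8.43 TPM at day 7 and 9.64 to 20.4 TPM at day 21, and did not pass (adjusted p = 0.711). Rpp21 (0.77), Rpp14 (-0.10) and Rpp40 (-0.36) did not pass either. Pop1, Pop7 and other calls near the threshold depend on the scaling: with TPM rescaled by median of ratios, by quantiles or without the 7 members, 4 of 10 rose, and with voom on recovered reads 3 rose with a median of 0.29; none fell in any of these. None of the 10 passed FDR 0.05 between 8F and 4F (3 at an unadjusted p under 0.05, and 0 past FDR 0.05 by limma voom on recovered reads). In 8F at day 21, 6 were higher than in 4F at day 7, led by Rpp25l (2.33 ± 0.29, limma, adjusted p = 0.00151). Across all genes 24.2% were called higher in that comparison. The count was 5 under median-of-ratios scaling and by quantiles, and 4 with voom on recovered reads. The mitochondrial RNase P is made of protein only, and its 3 genes, Trmt10c, Hsd17b10 and Prorp, gave 0 calls in all 3 comparisons (limma; 0, 0 and 1 at an unadjusted p under 0.05; 0 by limma voom), though 1 fell from day 7 to day 21 in 4F under quantile normalization.

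**Figure D5:**
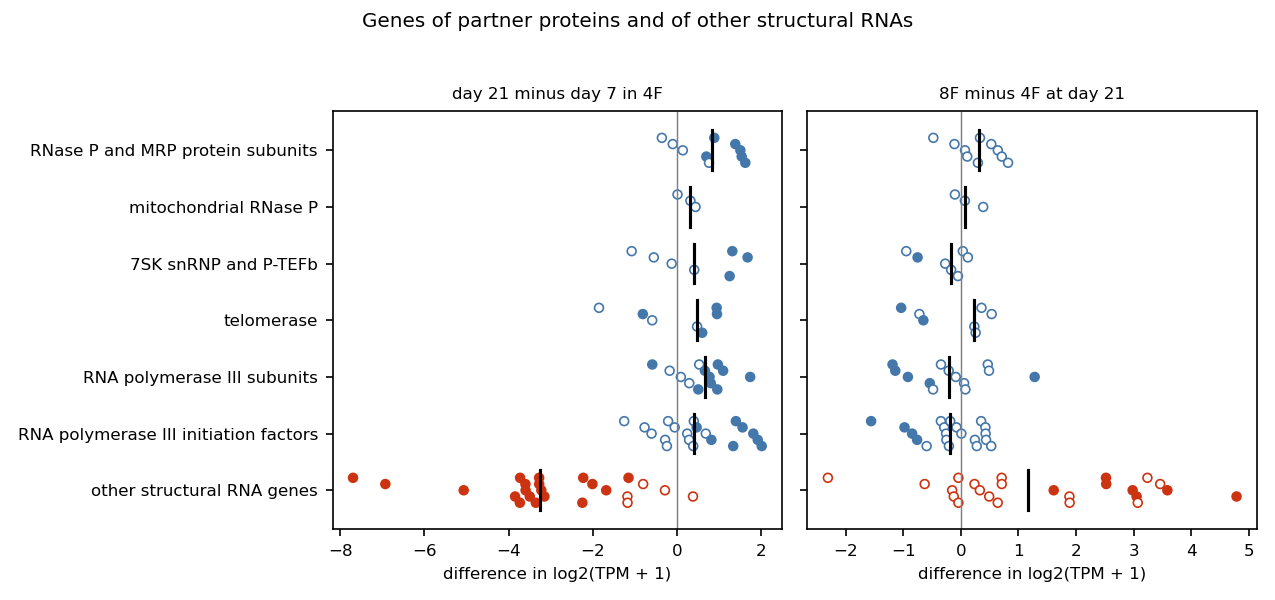
Difference in log2(TPM + 1) (x axes) of each tested gene in 7 lists, for day 21 minus day 7 in 4F (left) and 8F minus 4F at day 21 (right); filled points passed FDR 0.05 and black lines are list medians. On the left, other structural RNA genes have a median of -3.25 and the RNase P and MRP proteins one of 0.83.

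Of the 7 genes of the 7SK particle and P-TEFb, 3 rose and none fell from day 7 to day 21 in 4F. Across all genes 25.3% were called higher there and 15.3% lower. Larp7, which protects the end of 7SK RNA, had 82.9 and 62.9 TPM at day 7, 176, 177 and 193 TPM in 4F and 99.2 and 116 TPM in 8F at day 21. Its rise in 4F was 1.32 ± 0.15 (limma, adjusted p = 0.000807). Larp7 was also the 1 gene of the list that differed between factor sets, where 8.37% of all genes were called. It was lower in 8F by 0.75 ± 0.15 (limma, adjusted p = 0.0305). Mepce, which caps 7SK RNA, and Hexim2, a P-TEFb inhibitor, were the others that rose (Hexim2 1.68 ± 0.18, adjusted p = 0.000615). Hexim1, the other inhibitor, had 24.5 and 23.6 TPM at day 7, 5.86 to 14.7 TPM in 4F and 5.89 and 4.51 TPM in 8F at day 21. It did not pass in 4F (adjusted p = 0.0832) and was lower in 8F at day 21 than at day 7 by 2.02 ± 0.46 (adjusted p = 0.0144). Under median-of-ratios scaling 3 genes of this list rose and 2 fell from day 7 to day 21 in 4F, and with voom on recovered reads 3 rose and 3 fell.

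The protein genes of telomerase were mixed. Of 7, 3 rose and 1 fell in 4F from day 7 to day 21, where 25.3% of all genes were called higher and 15.3% lower. Tert, the reverse transcriptase, had 29.9 and 19.2 TPM at day 7, 37.7 to 55.3 TPM in 4F and 52.4 and 58.9 TPM in 8F at day 21 (0.95 ± 0.24 in 4F, limma, adjusted p = 0.0205; 1.18 ± 0.26 for 8F against day 7, adjusted p = 0.0143). Dkc1, which binds Terc and snoRNAs, rose by 0.96 ± 0.13 (adjusted p = 0.00166), and Nop10 of the same complex fell by 0.81 ± 0.20 (adjusted p = 0.0171). Gar1 and Dkc1 were lower in 8F than in 4F at day 21 (Gar1 by 1.04 ± 0.19, limma, adjusted p = 0.0243). Across all genes 4.41% were called lower there. Under median-of-ratios scaling, and with voom on recovered reads, 1 gene of the list was lower between these factor sets. Under quantile normalization no gene of this list rose in 4F and 1 fell, and with voom on recovered reads 1 rose and 3 fell.

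RNA polymerase III makes the RNAs of Rpph1, Rmrp and Rn7sk. Of its 13 subunit genes, 8 rose and 1 fell from day 7 to day 21 in 4F (5 and 1 under median-of-ratios scaling, and 2 and 1 with voom on recovered reads). Across all genes 25.3% were called higher there and 15.3% lower. Polr3a, the largest subunit, had 43.4 and 38.8 TPM at day 7, 139, 120 and 164 TPM in 4F and 140 and 156 TPM in 8F at day 21 (1.74 ± 0.15 in 4F, limma, adjusted p = 0.000326). Polr3k was the gene that fell, by 0.58 ± 0.19 (adjusted p = 0.0447). Between factor sets at day 21, 4 of the 13 were lower in 8F and 1 higher, where 4.41% and 3.95% of all genes were called. With voom on recovered reads, or rescaled to genes of at least 300 exonic bases, 2 were lower and 1 higher. Polr3g and Polr3gl, alternative forms of 1 subunit, were lower by 1.14 ± 0.16 and 0.92 ± 0.20 (limma, adjusted p = 0.0129 and 0.0394). So were Polr3d (-1.19 ± 0.15, limma, adjusted p = 0.00867) and Polr3c (-0.54 ± 0.11, limma, adjusted p = 0.0315). Polr1d, a subunit shared with RNA polymerase I, was higher in 8F by 1.28 ± 0.21 (adjusted p = 0.019).

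Of 20 genes listed for initiation factors and associated proteins, 8 rose and none fell in 4F from day 7 to day 21. Across all genes 25.3% were called higher there and 15.3% lower. Of the list, 6 rose and 5 fell under median-of-ratios scaling, and 5 rose and 5 fell of 19 with voom on recovered reads. Ssb (1.34 ± 0.13, adjusted p = 0.000468), one of the 8, is the La protein, which binds the ends of finished transcripts, and Maf1 (-0.77, adjusted p = 0.0525) is a repressor. Brf2, the factor that serves promoters of the Rpph1 kind, had 21.3 and 15.1 TPM at day 7, 54.1, 86.6 and 75.9 TPM in 4F and 101 and 104 TPM in 8F at day 21 (1.92 ± 0.23 in 4F, limma, adjusted p = 0.00112). Zfp143, a zinc finger activator of small RNA promoters, rose by 2.02 ± 0.18 (adjusted p = 0.000318). Snapc3, a subunit of the complex that binds these promoters, had 101 and 107 TPM at day 7, 142, 148 and 143 TPM in 4F and 45.7 and 50.8 TPM in 8F at day 21. It had the largest fall of the 4 genes, Ssb among them, called lower in 8F than in 4F at day 21 (-1.56 ± 0.10, limma, adjusted p = 0.0015). Across all genes 4.41% were called lower there. None of the 20 was called higher (6 of 20 at an unadjusted p under 0.05 in either direction, and 1 higher and 3 lower by limma voom).

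Upstream sequence is shown for the 3 abundant genes that were lower at day 21 and for which a RefSeq window of a neighbouring gene (GRCm38.p6, 250 bases before to 50 after that gene's start) covers the region. Each is written on the member's strand and ends nearest to the gene. Capitals mark the letters ATGCAAA, the core of the octamer motif of such promoters, or the same on the other strand. The motif was chosen after the sequences were seen, and it was found in 4.63% of all 32851 windows of 300 bases.
Rpph1, chr14:50807768-50807877, minus strand, nearest base 1 upstream: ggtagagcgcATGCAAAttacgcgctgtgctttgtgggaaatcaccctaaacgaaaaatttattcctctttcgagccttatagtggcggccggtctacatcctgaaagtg
Rmrp, chr4:43493115-43493290, minus strand, nearest base 57 upstream of the shorter entry: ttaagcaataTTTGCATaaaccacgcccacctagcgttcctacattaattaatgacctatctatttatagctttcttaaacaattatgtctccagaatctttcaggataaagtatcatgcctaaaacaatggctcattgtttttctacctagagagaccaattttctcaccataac
Rn7sk, chr9:78175664-78175866, minus strand, nearest base 31 upstream: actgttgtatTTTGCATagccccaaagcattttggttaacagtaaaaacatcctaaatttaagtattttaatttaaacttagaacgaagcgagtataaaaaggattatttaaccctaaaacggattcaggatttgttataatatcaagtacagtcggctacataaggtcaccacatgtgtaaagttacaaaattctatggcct
Each stretch was cut a few bases beyond the match nearest to the gene, so that it holds a match was fixed by the cut. The near end of the match lay 94 bases upstream of Rpph1, 216 upstream of Rmrp and 217 upstream of Rn7sk. A match in these letters is a description of the sequence and not of binding. On the far side of these regions, Parp2 kept the levels given above, and C920006O11Rik, 280 bases from Rn7sk, was at 0 to 2.39 TPM in all 7 libraries.

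The genes most like Rpph1 over the 7 libraries, by Pearson's r of log2(TPM + 1) among 12694 genes with a group mean of at least 10 TPM, were Ccnb1ip1 (r = 1), which shares its reads, then Fn1 (fibronectin, r = 0.997), Tnfrsf10b (a death receptor, r = 0.997), Stx4a (a syntaxin, r = 0.997) and Igsf3 (r = 0.997). Fn1 had 56.5 and 47.3 TPM at day 7, 5.01 to 6.05 TPM in 4F and 2.81 and 3.84 TPM in 8F at day 21. Those most like Rprl2 were Gm8203 (r = 0.994), Gm47294 (r = 0.994), Gm43028 (r = 0.992), Rpn1 (ribophorin I, r = 0.99) and Gm9531 (r = 0.99), of which Gm8203, Gm43028 and Gm9531 are annotated as processed pseudogenes. Gm47294, annotated as a miRNA gene, had 5.79 and 2.18 TPM at day 7, 125, 239 and 171 TPM in 4F and 0 and 1.01 TPM in 8F at day 21. Gm47294 was picked by its r with Rprl2 over these same libraries, so its likeness to Rprl2 in them was fixed by that pick. The 7 libraries form 3 groups, and these values of r are a description of them.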

How the data were processed

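Total RNA of pooled mini-oocytes was sequenced with the SMART-seq Stranded kit in 7 libraries, grouped by their labels. Per the submitters' processing notes and the study's methods, the authors clipped the first 3 bases of read 2 and trimmed with Trim Galore, used HISAT2 against mm10, took out rRNA alignments by bedtools, and gave unique ones to featureCounts with GENCODE vM25, with a fraction for each overlapping gene and no strand setting given. Read length and instrument differed between libraries that are not named. The authors deposited TPM per gene, in which reads are divided by exon length and scaled to 1 total per library. Reads shared with an overlapping gene on either strand cannot be told apart.

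Exon lengths and coordinates came from GENCODE vM21 (mm10), which matched 54312 of 55364 entries (98.1%). Reads were recovered from the steps of low TPM values, of which 99.0% to 99.7% were multiples of a sixth of a read within 0.02 reads. The 21780 genes that reached 1 TPM in 2 or more libraries entered 1 limma model of the 3 groups (version 3.58.1, R 4.3.3, eBayes with trend) as log2(TPM + 1), two-sided, with Benjamini-Hochberg adjustment over all 21780 and FDR 0.05. Fold changes on this scale understate those of low genes. The script was tested on simulated data. Sequences were read from the GENCODE transcripts and RefSeq windows and aligned with Biopython 1.88. Members and gene lists were chosen with earlier results of these data known. Named genes are the 7 members, genes overlapping them or within 1 kb, 9 partner genes (Rpp30, Pop1, Larp7, Hexim1, Tert, Dkc1, Polr3g, Polr3gl and Brf2), the gene past FDR 0.05 with the largest change in each list and direction, and the 5 genes most like Rpph1 and Rprl2; Rn7s1, Rn7s2, Rnu7 and others named beside these were picked after their values were seen. Alternatives were other pseudocounts, filters, scalings, variance models, a replicate block, voom on recovered reads and each library left out.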

Additional observations from a re-analysis of the deposited data

How the results depend on the processing

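Counts of calls between 8F and 4F at day 21 were the least stable. Against 1822 genes called, there were 994 without the variance trend and 3572 with array weights, and 306 to 2221 with one library left out (306 and 357 without 8F replicate 1 or 2; 943, 924 and 1021 without 4F replicate 1, 2 or 3 of day 21). Of the 6 protein lists 12 genes were called, 4 without the trend, and the count ranged from 1 to 13 with one library left out. For 8F at day 21 minus 4F at day 7, leaving out 8F replicate 1 or 2 lowered 8103 calls to 4215 and 4089, and those of the protein lists from 25 to 15 and 14, within 4089 to 8281 and 14 to 25 over all libraries left out.

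The replicate number as a block gave 164 calls for 8F minus 4F, 1 of them in the protein lists, and Rprl3 no longer passed (-1.09, adjusted p = 0.0626). Nothing states that equal numbers pair libraries, and deviations of same-numbered libraries correlated between -0.037 and 0.011, so they were not treated as pairs.

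Scaling moved the median over all genes for day 21 minus day 7 in 4F from 0.17 to -0.06 with median of ratios and to -0.32 with voom, and the share of calls that were higher from 62.3% to 48.6% and 37.5% (52% by quantiles, 51.9% scaled to genes of at least 300 bases); for 8F minus 4F it went from 47.3% to 62.3% with voom, 61.1% without the trend and 73.5% or 71.1% without 8F replicate 1 or 2, and for 8F against day 7 from 65.1% to 51.5%, 51.1% by quantiles and 47.2%. Rpph1 was lower in 8F than in 4F at day 21 in all 21 settings (-1.02 to -0.58), past FDR 0.05 there with voom alone (adjusted p = 0.024). Rescaling without the members, Ccnb1ip1 and Ccdc107 was chosen after seeing the data and changed no member's call. Terc and Rprl1 rest on too few reads for any statement on their change.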
